A study of Mus musculus with 12 samples.

Results

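Cd3d, Cd3e, Cd3g, Cd247, Cd4, Cd5, Cd6, Cd2, Thy1 and Lck encode the CD3 chains of the T cell receptor (TCR) complex, its coreceptor and surface glycoproteins that surround it, and the kinase that starts its signal. These 10 genes were chosen by name. Of these, 8 were matched by symbol to the annotation of the array, each by 1 row, out of 22180 genes measured. Cd247 and Lck had no row matched by symbol and were not analysed here.

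The TCR binds a peptide held by a major histocompatibility complex (MHC) molecule but has no signalling domain of its own. Signals leave through the CD3 chains, which pair as CD3 epsilon with CD3 delta, CD3 epsilon with CD3 gamma, and a zeta homodimer encoded by Cd247. CD4 holds the kinase Lck and brings it to the complex by binding MHC class II. CD5 and CD6 tune the strength of the signal, CD2 is an adhesion receptor, and Thy1 is a lipid-anchored glycoprotein used as a T cell marker in mice. Complexes taken into the cell after stimulation can be degraded, which transcript levels do not show.

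The samples were CD4+ spleen cells of 8-week-old Foxp3.eGFP reporter mice (strain C57BL/6), sorted into Foxp3+ regulatory (Treg) and Foxp3- (Teff) cells. OX40L-JAG1 cells came from 3 days of culture with soluble OX40L at 5 µg/ml and JAG1 at 1 µg/ml, which the series calls TCR-independent. Anti-CD3-CD28 cells came from 3 days with monoclonal antibodies against CD3 and CD28 at 2 µg/ml each, which act through the TCR. Control cells were fresh and untreated, so every comparison with control joins 3 days of culture to the treatment. Each of the 6 groups of treatment and cell type had 2 Affymetrix Mouse Gene 2.0 ST arrays, called replicates B and 1. The labels do not say whether the 2 replicates came from different mice or culture wells, so a p-value measures only how far these samples spread, and that spread may be technical. The sort used the Foxp3 reporter, and all cells carry the reporter allele.

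Levels are the deposited log2 intensities, and a change is a difference of log2 levels with its standard error (SE). Foxp3 had levels of 10.36 to 11.22 on the Treg arrays and 5.58 to 6.81 on the Teff arrays. The OX40L-JAG1 Teff arrays stood apart: their SD over all genes was 1.49 and 1.71, against 1.95 to 2.19 on the other arrays, and their replicates correlated across genes at 0.881, against 0.984 to 0.994 in the other groups. Every result that involves them is given with that limit. A fit without them is given beside each comparison of the members that does not use them, because the fit over all 12 arrays estimates 1 spread per gene from all groups.

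The CD3 genes lie together in the genome, and their promoters are shown because Cd3d differed in pattern from its neighbours Cd3e and Cd3g. In the RefSeq annotation of GRCm38.p6 the transcription starts of Cd3g and Cd3d were 1355 bases apart on opposite strands, and those of Cd3d and Cd3e 27825 bases apart. The sequences are the 250 bases before each start, 5′ to 3′ on the strand of the gene. They lie at chr9:44980432-44980681 (minus strand) for Cd3g, chr9:44981536-44981785 (plus strand) for Cd3d and chr9:45009612-45009861 (minus strand) for Cd3e. Cd5, at chr19:10738975-10739224 (minus strand), is shown beside them as a gene of another chromosome, whose level correlated with that of Cd3e across the 12 arrays at 0.948, below the 0.958 of Cd6. Capitals mark matches on either strand. The motifs searched were the letters GATAA for GATA factors, the letters AGGAAG for Ets factors, the letters TGTGGT for Runx factors, the E-box letters CACCTG and the TATA box letters TATAAA.
Cd3g: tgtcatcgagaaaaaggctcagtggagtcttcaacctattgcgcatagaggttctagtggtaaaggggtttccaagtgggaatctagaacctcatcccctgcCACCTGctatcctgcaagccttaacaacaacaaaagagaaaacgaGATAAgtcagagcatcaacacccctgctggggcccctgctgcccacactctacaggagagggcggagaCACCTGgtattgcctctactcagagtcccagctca
Cd3d: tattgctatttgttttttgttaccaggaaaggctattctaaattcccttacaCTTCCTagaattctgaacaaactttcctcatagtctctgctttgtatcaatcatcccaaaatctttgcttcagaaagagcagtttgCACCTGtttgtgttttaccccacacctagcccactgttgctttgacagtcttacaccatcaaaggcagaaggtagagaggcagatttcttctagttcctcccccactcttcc
Cd3e: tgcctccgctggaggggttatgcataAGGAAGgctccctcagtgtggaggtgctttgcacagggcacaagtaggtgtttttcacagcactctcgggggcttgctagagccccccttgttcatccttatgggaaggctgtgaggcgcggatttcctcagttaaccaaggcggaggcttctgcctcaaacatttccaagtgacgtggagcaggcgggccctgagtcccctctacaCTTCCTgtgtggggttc
Cd5: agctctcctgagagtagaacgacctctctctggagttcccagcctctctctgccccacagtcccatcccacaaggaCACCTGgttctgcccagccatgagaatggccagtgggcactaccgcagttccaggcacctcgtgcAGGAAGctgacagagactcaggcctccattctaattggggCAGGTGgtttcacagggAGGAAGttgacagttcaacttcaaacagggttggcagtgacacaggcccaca
CACCTG was found at positions -148 and -35 of Cd3g, -112 of Cd3d and, on either strand, -174 and -69 of Cd5, counted from the start at the leftmost base. AGGAAG was found at -198 of Cd3d, -224 and -17 of Cd3e, and -109 and -52 of Cd5. GATAA was found at -103 of Cd3g. Among 32851 mouse promoters of the same length, 17.2% held the E-box letters, 29.5% the Ets letters, 22.6% the GATA letters, 14% the Runx letters and 12.4% the TATA box letters. These matches are thus common and are a description of the letters only. GC content was 51.6% for Cd3g, 41.2% for Cd3d, 57.2% for Cd3e and 56.8% for Cd5. Cd4, Cd6, Cd2 and Thy1 are named only.

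All 8 genes were brightly measured. On every array Cd6 ranked between percentiles 85.2 and 96.6 of the genes tested, and the other 7 between 95.9 and 99.7, and none lay below the lowest array median of 4.87 in any group. The levels of different genes come from different probes, so no gene is called higher than another on the same array.

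**Figure D1:**
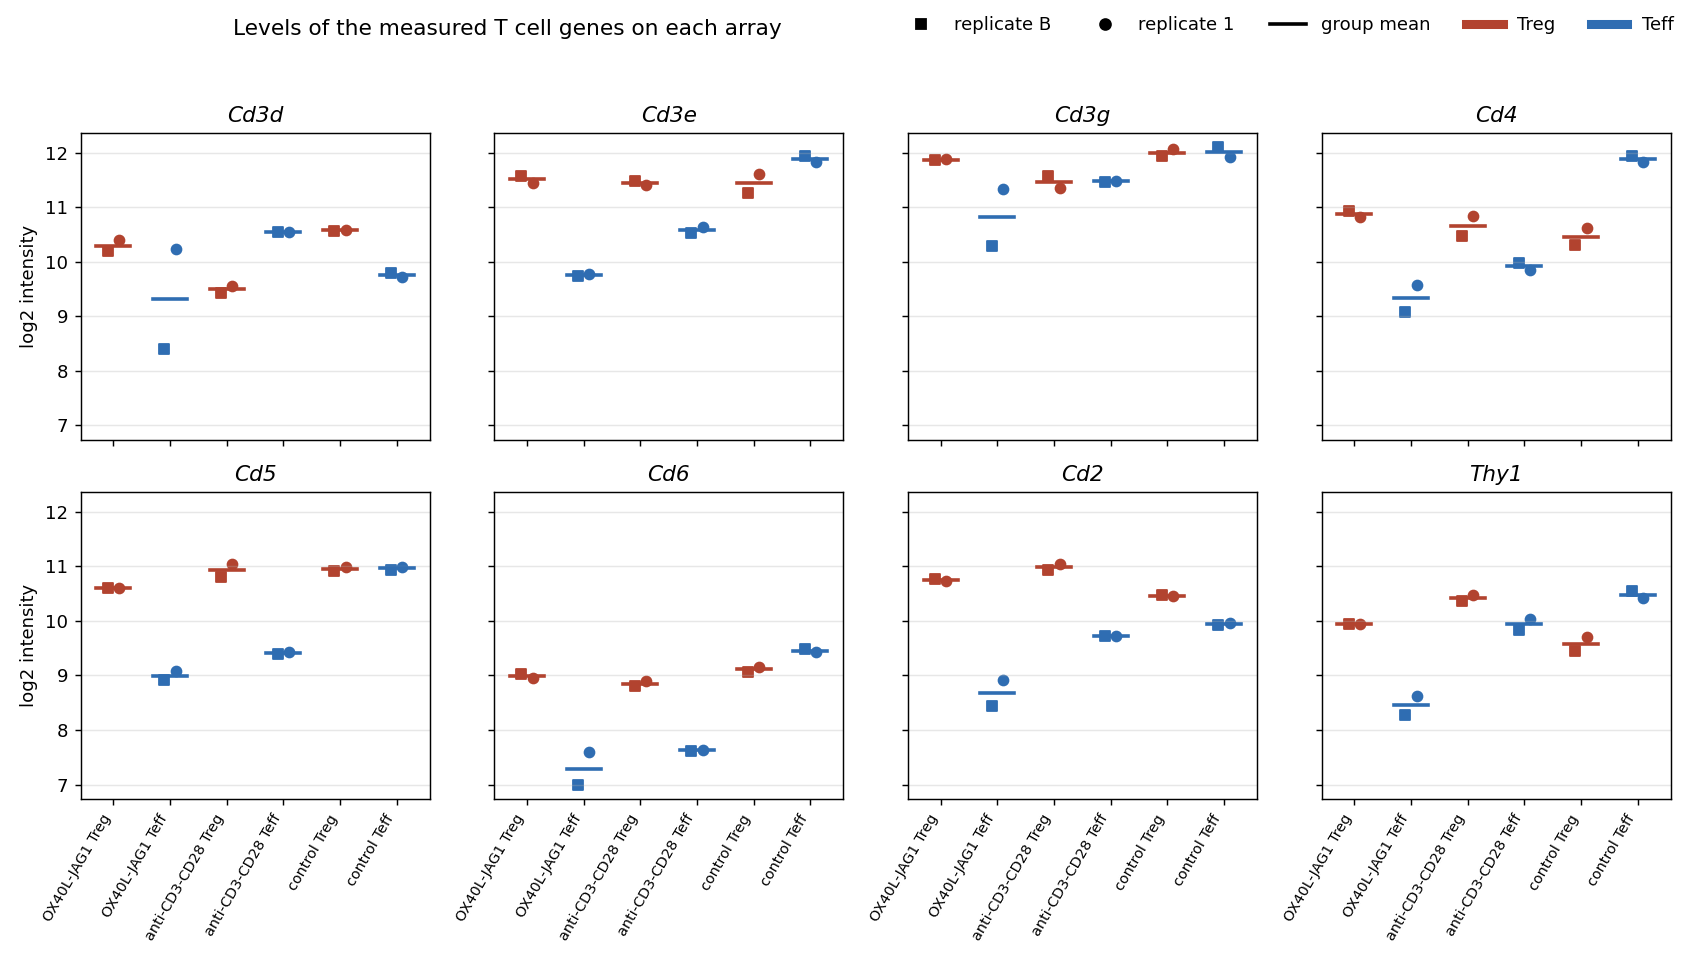
Log2 intensity (vertical axis) of each gene on every array, by group (horizontal axis); squares are replicate B, circles replicate 1, and bars the mean of 2 arrays. Cd4, Cd5 and Cd6 are low in both cultured Teff groups, and Cd3d runs the other way in the anti-CD3-CD28 groups, at 9.43 and 9.55 in Treg and 10.54 on both Teff arrays.

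Cd3e, the chain shared by both CD3 heterodimers, had levels of 11.58 (replicate B) and 11.44 (replicate 1) in OX40L-JAG1 Treg and 11.47 and 11.41 in anti-CD3-CD28 Treg, against 11.26 and 11.62 in control Treg cells. Among Teff cells it had 9.73 and 9.77 after OX40L-JAG1 and 10.53 and 10.63 after anti-CD3-CD28, against 11.93 and 11.83 in control. The 3 Treg groups overlapped, while the cultured Teff groups lay below every other array. In anti-CD3-CD28 Teff cells Cd3e fell by 1.30 ± 0.18 on the log2 scale (SE, n = 2 arrays a group), to a level 2.46-fold lower than in control Teff cells (limma, adjusted p = 7.87e-04). In anti-CD3-CD28 Treg cells the change was 0.00 ± 0.18 (limma, adjusted p = 0.993).

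Cd3g, the partner of CD3 epsilon in the gamma-epsilon pair, had smaller changes. It had 11.86 and 11.88 in OX40L-JAG1 Treg and 11.58 and 11.35 in anti-CD3-CD28 Treg, against 11.94 and 12.07 in control Treg cells. The Teff levels were 10.30 and 11.34 after OX40L-JAG1 and 11.47 and 11.48 after anti-CD3-CD28, against 12.10 and 11.93 in control. The 2 OX40L-JAG1 Teff arrays were a full unit apart. The change in anti-CD3-CD28 cells was -0.54 ± 0.28 (SE) in Treg and in Teff, and passed in neither (limma, adjusted p = 0.305 and 0.248). Both size and call moved with the scaling. Quantile normalization gave -0.33 in Treg and -0.80 in Teff cells, of which the Teff change passed (limma, adjusted p = 0.439 and 0.0203). Cyclic loess gave -0.75 in Treg and -0.28 in Teff cells, of which the Treg change passed (limma, adjusted p = 0.0124 and 0.330). With the OX40L-JAG1 Teff arrays left out both passed (limma, adjusted p = 0.0241 for Treg and 0.0180 for Teff).

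Cd3d, the partner of CD3 epsilon in the delta-epsilon pair, had a pattern of its own. It had 10.19 and 10.40 in OX40L-JAG1 Treg and 9.43 and 9.55 in anti-CD3-CD28 Treg, against 10.56 and 10.59 in control Treg cells. Teff cells had 8.40 and 10.22 after OX40L-JAG1 and 10.54 and 10.54 after anti-CD3-CD28, against 9.79 and 9.72 in control. The anti-CD3-CD28 arrays thus lay below control in Treg and above control in Teff cells. The OX40L-JAG1 Teff arrays were far apart, with an SD of 1.29.

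That SD enters the spread of Cd3d in every comparison. Over all 12 arrays the Cd3d change of -1.08 ± 0.42 (SE) in anti-CD3-CD28 Treg over control Treg did not pass (limma, adjusted p = 0.152), nor did that of 0.79 ± 0.42 in Teff cells (limma, adjusted p = 0.263). The response of Treg minus that of Teff cells was -1.87 ± 0.60 (limma, adjusted p = 0.0627). Without the OX40L-JAG1 Teff arrays the SE fell to 0.15 for each change and 0.21 for their difference, and the same values passed (limma, adjusted p = 2.11e-04, 0.00161 and 9.89e-05), the difference in a test where 31% of all genes passed. After quantile normalization over all 12 arrays the difference was -2.33 and passed (limma, adjusted p = 0.00803), where 4.83% of all genes did. Neither cyclic loess nor quantile normalization turned the sign of any of these.

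Subtracting log2 levels within an array removes a shift shared by all genes of that array. It does not remove a difference in spread between arrays, such as that of the OX40L-JAG1 Teff arrays. The probes differ between genes, so only the shift of such a difference between arrays is read, not its size on 1 array. Cd3d minus Cd3e was -2.04 and -1.87 in anti-CD3-CD28 Treg cells, against -0.70 and -1.03 in control Treg cells. In Teff cells it was 0.01 and -0.09 after anti-CD3-CD28, against -2.14 and -2.11 in control. The control Teff and anti-CD3-CD28 Treg arrays thus held the low values and the anti-CD3-CD28 Teff arrays the high ones. Cd3d minus Cd3g ordered these groups the same way, with -2.14 and -1.80 in anti-CD3-CD28 Treg, -0.93 and -0.94 in anti-CD3-CD28 Teff, -1.37 and -1.48 in control Treg and -2.31 and -2.21 in control Teff cells. These differences follow from the levels above and were given no test of their own.

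**Figure D2:**
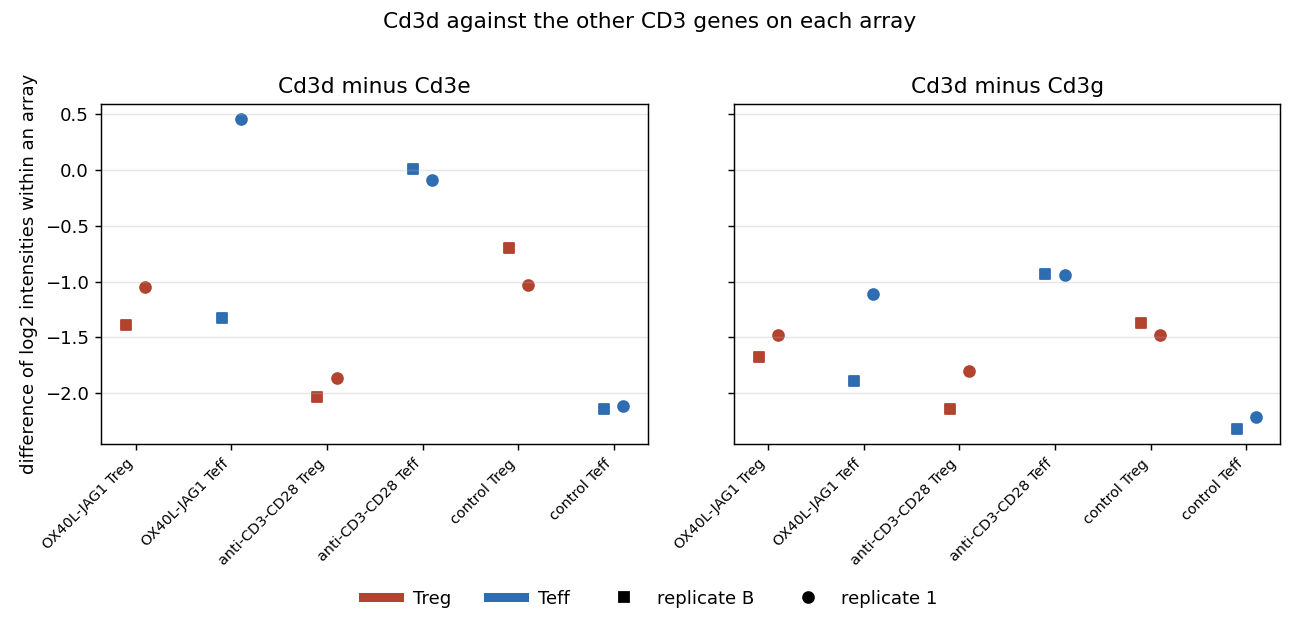
Difference of log2 intensities within each array (vertical axis), Cd3d minus Cd3e on the left and Cd3d minus Cd3g on the right, by group (horizontal axis); each point is 1 array, squares replicate B and circles replicate 1. Cd3d minus Cd3e lies at 0.01 and -0.09 on the anti-CD3-CD28 Teff arrays and at -2.14 and -2.11 on the control Teff arrays, while the OX40L-JAG1 Teff replicates are at -1.33 and 0.45.

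Cd4, the MHC class II coreceptor, had the largest change of the 8 genes between cultured and control Teff cells. It had 10.92 and 10.82 in OX40L-JAG1 Treg and 10.48 and 10.84 in anti-CD3-CD28 Treg, against 10.31 and 10.61 in control Treg cells. In Teff cells it had 9.09 and 9.57 after OX40L-JAG1 and 9.97 and 9.86 after anti-CD3-CD28, against 11.93 and 11.84 in control. The control Teff arrays were the highest of all and the cultured Teff arrays the lowest, with the 3 Treg groups between them. The anti-CD3-CD28 Treg arrays overlapped both other Treg groups, while the OX40L-JAG1 Treg arrays lay above the control Treg arrays. In anti-CD3-CD28 Teff cells Cd4 fell by 1.97 ± 0.22 (SE), to a level 3.91-fold lower than in control (limma, adjusted p = 1.79e-04). Cd4 was also lower in control Treg than in control Teff cells, with a difference of -1.42 ± 0.22 (limma, adjusted p = 0.00413).

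Cd5 and Cd6, inhibitory or signal-tuning receptors found at the synapse with the TCR, were lower in cultured Teff cells as well. Cd5 had 10.61 on both OX40L-JAG1 Treg arrays and 10.81 and 11.05 in anti-CD3-CD28 Treg, against 10.91 and 10.98 in control Treg cells. In Teff cells Cd5 had 8.91 and 9.09 after OX40L-JAG1 and 9.40 and 9.43 after anti-CD3-CD28, against 10.94 and 10.99 in control. The fresh arrays of both cell types lay between 10.91 and 10.99, with a difference, Treg minus Teff, of -0.02 ± 0.18 (limma, adjusted p = 0.981). In anti-CD3-CD28 Teff cells Cd5 fell by 1.55 ± 0.18 (SE), or 2.92-fold (limma, adjusted p = 2.00e-04).

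Cd6 had 9.03 and 8.95 in OX40L-JAG1 Treg and 8.81 and 8.90 in anti-CD3-CD28 Treg, against 9.06 and 9.16 in control Treg cells. In Teff cells Cd6 had 6.98 and 7.60 after OX40L-JAG1 and 7.62 and 7.63 after anti-CD3-CD28, against 9.49 and 9.43 in control. No neighbouring groups overlapped in the order of its levels, from control Teff down to OX40L-JAG1 Teff. In anti-CD3-CD28 Teff cells Cd6 fell by 1.83 ± 0.21 (SE), or 3.56-fold (limma, adjusted p = 2.11e-04), and in anti-CD3-CD28 Treg cells its change was -0.26 ± 0.21 (limma, adjusted p = 0.545).

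Cd2, an adhesion receptor that binds CD48 in mice, had its highest level in cultured Treg cells. It had 10.76 and 10.74 in OX40L-JAG1 Treg and 10.94 and 11.04 in anti-CD3-CD28 Treg, against 10.47 and 10.45 in control Treg cells. Among Teff cells it had 8.44 and 8.92 after OX40L-JAG1 and 9.73 on both arrays after anti-CD3-CD28, against 9.93 and 9.96 in control. Each Treg array lay above each Teff array. The Cd2 change in anti-CD3-CD28 Treg over control Treg was 0.53 ± 0.19 (SE) and did not pass over all 12 arrays (limma, adjusted p = 0.125), but did without the OX40L-JAG1 Teff arrays (limma, adjusted p = 0.0167).

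Thy1 had 9.94 and 9.95 in OX40L-JAG1 Treg and 10.37 and 10.47 in anti-CD3-CD28 Treg, against 9.46 and 9.70 in control Treg cells. The Teff levels were 8.28 and 8.62 after OX40L-JAG1 and 9.83 and 10.04 after anti-CD3-CD28, against 10.54 and 10.43 in control. The higher of the anti-CD3-CD28 Treg arrays lay within the range of the control Teff arrays, and the lower lay below it. Thy1 rose by 0.84 ± 0.19 (SE) in anti-CD3-CD28 Treg over control Treg cells, or 1.79-fold (limma, adjusted p = 0.0173). That call was lost after quantile normalization, with a change of 0.64 (limma, adjusted p = 0.0725), and after cyclic loess, with 0.54 (limma, adjusted p = 0.139), where 10.2% of all genes passed. In control cells Thy1 was lower in Treg than in Teff, with a difference of -0.91 ± 0.19 (limma, adjusted p = 0.0252), a call that cyclic loess also ended (limma, adjusted p = 0.0629), where 4.8% of all genes passed.

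The first comparison asks what antibody stimulation did to these genes in Teff cells. In anti-CD3-CD28 Teff over control Teff cells 4 of the 8 genes fell (Cd4, Cd6, Cd5 and Cd3e) and none rose, where 15.2% of all genes tested passed in either direction and 9.75% were lower. All 4 also passed after quantile normalization, where 11.6% of all genes did, and after cyclic loess, where 15.2% did. Quantile normalization added Cd3g as lower, and cyclic loess added Cd3d as higher, at 1.11 (limma, adjusted p = 0.0170). The changes that did not pass were -0.55 ± 0.19 for Thy1, -0.54 ± 0.28 for Cd3g, -0.22 ± 0.19 for Cd2 and 0.79 ± 0.42 for Cd3d (SE). Bright genes as a class were somewhat lower in this comparison: among the 1346 genes at least as bright on average as Cd6, the median change was -0.33 and 27% fell, against a median of -0.92 for the 8. With the OX40L-JAG1 Teff arrays left out 7 of the 8 passed, 6 lower and Cd3d higher, where 28.9% of all genes passed.

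In bulk RNA, fewer cells of a type and less RNA per cell cannot be told apart. The summed linear intensity of 5 T cell markers, of which Cd3d, Cd3e, Cd3g and Cd4 are genes described here, was 7111 to 7138 on the anti-CD3-CD28 Teff arrays and 12962 to 13986 on the control Teff arrays. The sum of 4 Treg markers was higher in anti-CD3-CD28 Teff cells, at 3704 to 3987 against 363 to 386 in control Teff cells, with Il2ra and Ctla4 called higher and Foxp3 at -0.01 ± 0.21 (SE). The sum of 3 erythroid and platelet markers was higher too, at 396 to 397 against 73.4 to 74.1. All 3 were called higher, where 5.44% of all genes were. The part of cells with these markers in the result was not tested. The sum of 11 neutrophil markers was 305 to 334, against 672 to 676 in control Teff cells, that of 14 myeloid and dendritic cell markers 378 to 407, against 442 to 457, and that of 7 B cell markers 207 to 216, against 428 to 430. Natural killer cell markers overlapped, at 307 to 311 against 279 to 313.

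The same antibodies gave another picture in Treg cells. In anti-CD3-CD28 Treg over control Treg cells 1 of the 8 genes, Thy1, rose and none fell, where 10.1% of all genes tested passed and 8.08% were higher. The Thy1 call was lost without control Treg replicate B or either anti-CD3-CD28 Treg replicate, leaving 0 members called. Without the OX40L-JAG1 Teff arrays 4 passed, Thy1 and Cd2 higher and Cd3d and Cd3g lower, where 21.5% of all genes passed. Cd4, Cd5 and Cd3e were not called in either fit, with changes of 0.20 ± 0.22, -0.02 ± 0.18 and 0.00 ± 0.18 (SE). After quantile normalization 2 passed, Cd3d at -1.40 and Cd6 at -0.59 (limma, adjusted p = 0.0109 and 0.0399), where 6.88% of all genes passed. After cyclic loess 3 passed, Cd3d, Cd3g and Cd6, all lower, where 10.2% of all genes passed and 3.62% were lower. On these arrays the sum of 4 plasma cell markers was 917 to 939, against 283 to 375 in control Treg cells, with Xbp1 called higher, Jchain lower and a median change of -0.18. That of neutrophil markers was 335 to 364, against 220 to 224, with Ltf and Cxcr2 called higher of 11 and a median of 0.01. That of erythroid and platelet markers was 181 to 184, against 63.2 to 73.2, with Ppbp called higher of 3. Their part in the result was not tested.

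**Figure D3:**
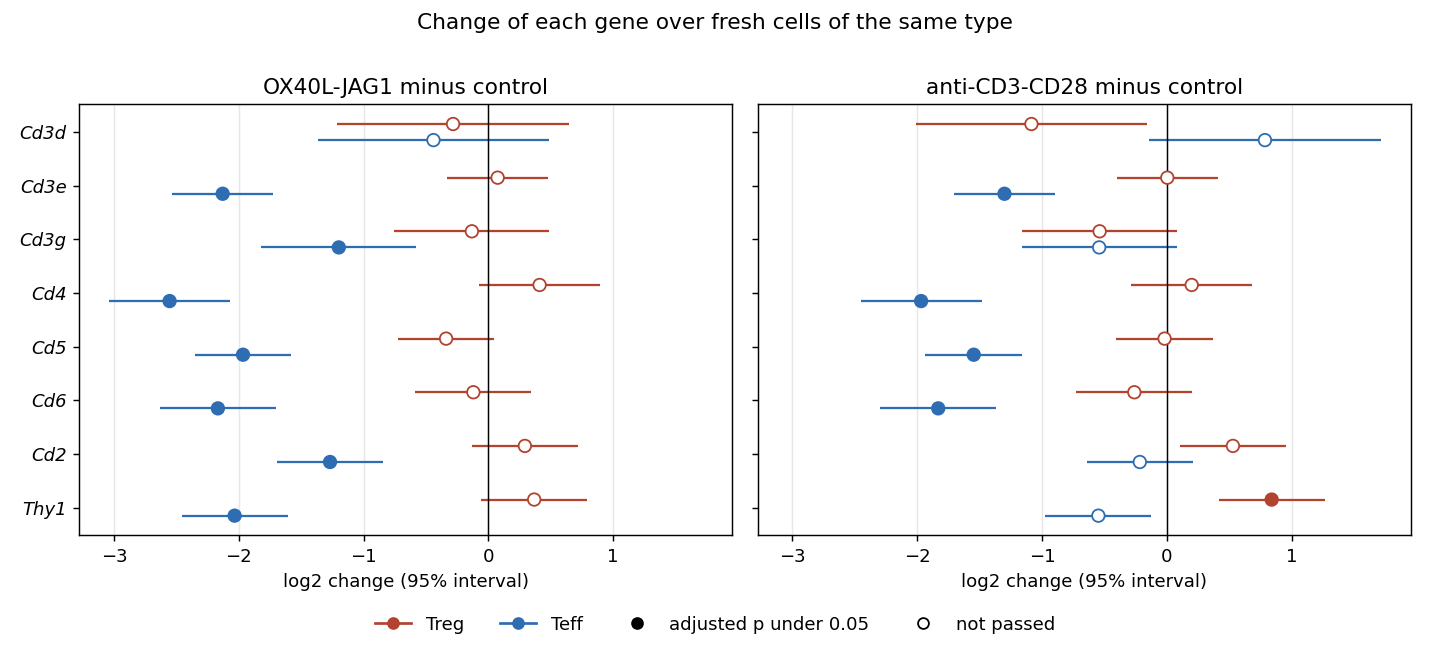
Log2 change over control cells of the same type (horizontal axis) for each gene, with its 95% confidence interval; filled points passed an adjusted p of 0.05 in limma. In the anti-CD3-CD28 panel the Teff points of Cd4, Cd5, Cd6 and Cd3e lie left of 0 while their Treg points lie near it; in the OX40L-JAG1 panel 7 Teff points and no Treg point passed.

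The difference between the cell types was tested directly, as the Treg response minus the Teff response. For anti-CD3-CD28 it was positive and passed for 5 of the 8 genes, where 13.1% of all genes tested passed and 10.1% were positive. Among the 1346 genes at least as bright as Cd6, 31.3% were positive and the median was 0.64, against 1.35 for the 8. It was 2.17 ± 0.31 (SE) for Cd4 (limma, adjusted p = 0.00192), 1.57 ± 0.30 for Cd6 (limma, adjusted p = 0.00734) and 1.53 ± 0.25 for Cd5 (limma, adjusted p = 0.00349). For Thy1 it was 1.39 ± 0.27 (limma, adjusted p = 0.00868) and for Cd3e 1.30 ± 0.26 (limma, adjusted p = 0.00936). After cyclic loess Cd4 and Cd6 still passed, at 1.59 and 0.89, and Cd3d passed as a negative difference of -2.49 (limma, adjusted p = 0.00321), where 8.12% of all genes passed. Run over all 12 arrays in this way, cyclic loess ended the calls of Cd5, Thy1 and Cd3e (limma, adjusted p = 0.0971, 0.139 and 0.215). With the OX40L-JAG1 Teff arrays left out 7 passed, where 31% of all genes did: the same 5, Cd2 as positive (limma, adjusted p = 0.0134) and Cd3d as negative. Without control Teff replicate B the count was 3.

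Compared directly, anti-CD3-CD28 Treg had higher levels than anti-CD3-CD28 Teff cells for 4 of the 8 genes, where 11.9% of all genes tested passed and 9.03% were higher. Among genes as bright as Cd6 or brighter 27.6% were higher, with a median of 0.45, against 0.80 for the 8. The differences were 1.51 ± 0.18 (SE) for Cd5 (limma, adjusted p = 4.37e-04), 1.26 ± 0.19 for Cd2 (limma, adjusted p = 0.00226), 1.23 ± 0.21 for Cd6 (limma, adjusted p = 0.00418) and 0.86 ± 0.18 for Cd3e (limma, adjusted p = 0.0125). Cd5, Cd2 and Cd6 also passed after cyclic loess, where 8.33% of all genes did, and Cd3e did not. Cd3d ran the other way, with a difference of -1.05 ± 0.42 that did not pass over all 12 arrays (limma, adjusted p = 0.135). It passed as lower in Treg cells after cyclic loess, at -1.52 (limma, adjusted p = 0.00646), and after quantile normalization, at -1.38 (limma, adjusted p = 0.0174), where 5.03% of all genes passed. With the OX40L-JAG1 Teff arrays left out 7 passed, where 28.7% of all genes did: the same 4, Cd4 and Thy1 as higher (limma, adjusted p = 0.00760 and 0.0359) and Cd3d as lower (limma, adjusted p = 3.68e-04). Without anti-CD3-CD28 Treg replicate 1 the count was 2.

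In fresh cells 2 of the 8 were lower in Treg than in Teff cells (Cd4 and Thy1), where 3.85% of all genes passed and 2.51% were lower. None of the 8 passed when control Teff replicate B or control Treg replicate B was left out. With the OX40L-JAG1 Teff arrays left out 4 passed in fresh cells, with Cd3d and Cd2 higher in Treg cells, where 14.5% of all genes passed.

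The other treatment, OX40L-JAG1, gave no call among these genes in Treg cells. In OX40L-JAG1 Treg over control Treg cells none of the 8 passed in limma, where 1.56% of all genes tested did, and 0 had an unadjusted p under 0.05. Their changes lay between -0.34 ± 0.18 (SE) for Cd5 and 0.41 ± 0.22 for Cd4. None passed without the OX40L-JAG1 Teff arrays, where 5.41% of all genes did. A p that misses the threshold does not show that the levels are equal. The 95% interval for Cd3d allowed a change as low as -1.21 and that for Cd4 one as high as 0.90.

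In OX40L-JAG1 Teff over control Teff cells 7 of the 8 genes fell, where 46.9% of all genes tested passed and 26.9% were lower. Cd4 fell by 2.55 ± 0.22 (SE), or 5.87-fold (limma, adjusted p = 2.97e-05), Cd6 by 2.17 ± 0.21 (limma, adjusted p = 4.74e-05) and Cd3e by 2.13 ± 0.18 (limma, adjusted p = 3.08e-05). Thy1 fell by 2.03 ± 0.19, Cd5 by 1.97 ± 0.18, Cd2 by 1.27 ± 0.19 and Cd3g by 1.20 ± 0.28 (limma, adjusted p = 4.31e-05, 3.49e-05, 4.42e-04 and 0.00578). Cd3d changed by -0.44 ± 0.42 and did not pass (limma, adjusted p = 0.396).

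These falls stood in a comparison where most bright genes fell. Among the 1346 genes at least as bright as Cd6, 71.8% were lower and the median change was -1.22, against a median of -2.0 for the 8. Cyclic loess, which removes a trend with level, left Cd4 at -1.24 (limma, adjusted p = 0.00200), Cd6 at -0.86 (adjusted p = 0.00386), Cd3e at -0.85 (adjusted p = 0.0359) and Thy1 at -0.70 (adjusted p = 0.0360), where 18.2% of all genes passed. It ended the call of Cd5, turned Cd2 and Cd3g to 0.06 and 0.03, and turned Cd3d to 0.89, which passed as higher (limma, adjusted p = 0.0414). After quantile normalization 6 of the 8 were lower, with Cd2 at -0.26, where 21.7% of all genes passed. Loess also removes any true change that runs with level.

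**Figure D4:**
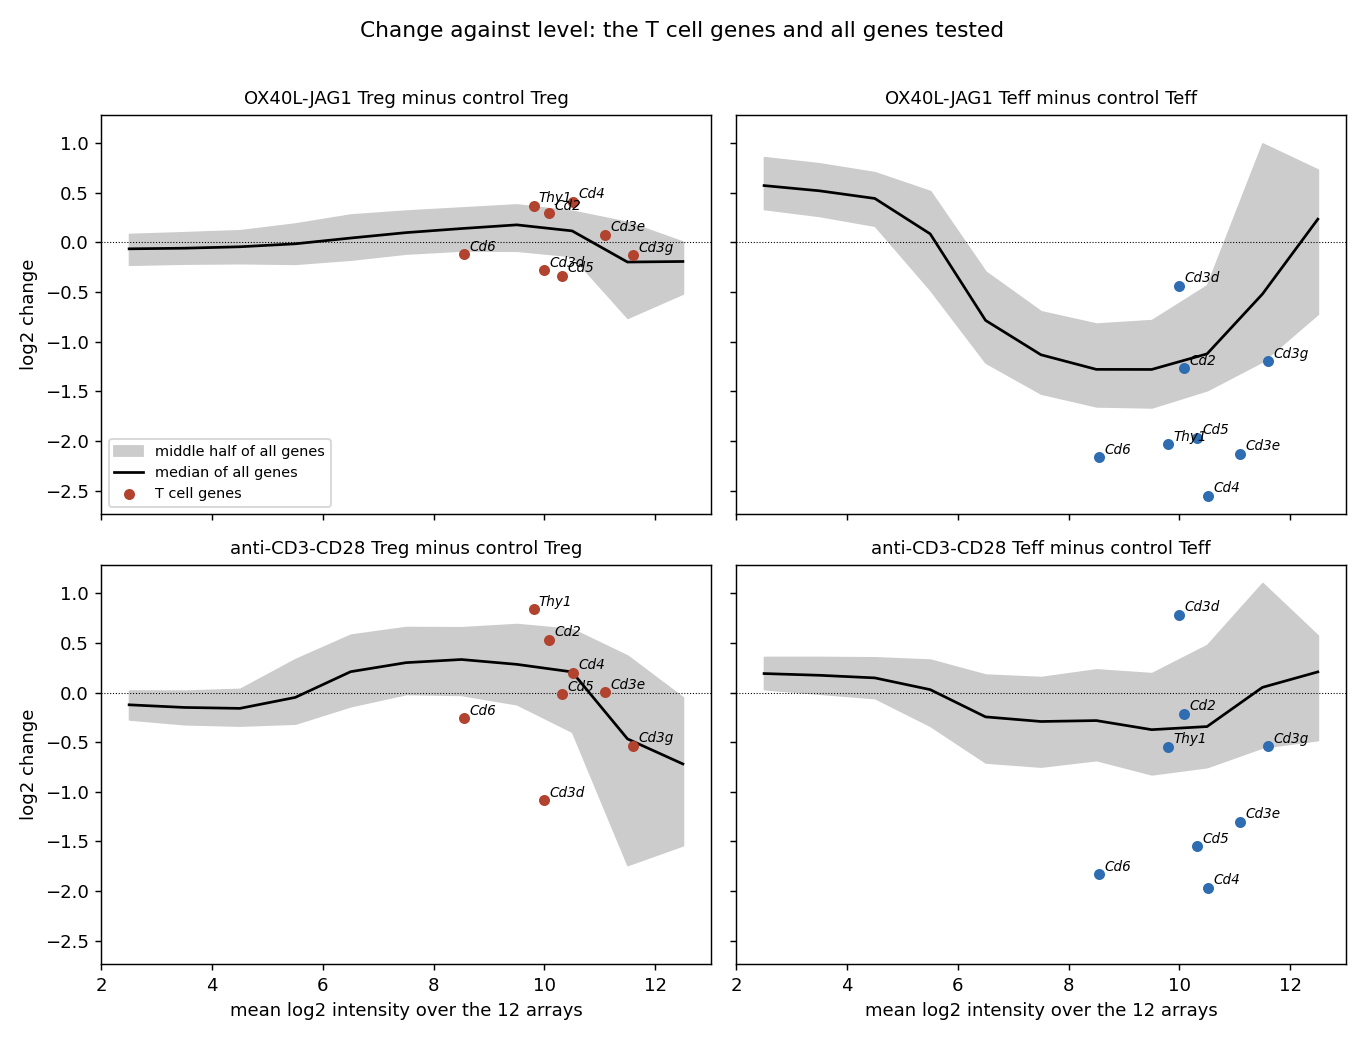
Log2 change over control (vertical axis) against mean log2 intensity over the 12 arrays (horizontal axis); the line is the median and the grey band the interquartile range of all genes in bins of level, and points are the 8 genes. On the OX40L-JAG1 Teff panel the median of genes of level 8 to 10 lies at -1.28 and Cd4, Cd3e, Cd6, Cd5 and Thy1 lie below the band; on the OX40L-JAG1 Treg panel the median stays between -0.20 and 0.18.

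Markers of other cells moved with the OX40L-JAG1 Teff arrays. The 5 T cell markers summed to 3199 and 5714, against 12962 to 13986 on the control Teff arrays. Neutrophil markers summed to 4212 to 8698, against 672 to 676 in control Teff cells, with 8 of 11 called higher and 1 lower. Basophil and mast cell markers summed to 1513 to 3221, against 376 to 378, with 6 of 9 called higher and 1 lower. Myeloid and dendritic cell markers summed to 1397 to 3431, against 442 to 457, with 11 of 14 called higher. Of all genes 20% were called higher in this comparison and 26.9% lower. After quantile normalization 8 neutrophil, 5 basophil and mast cell, and 8 myeloid and dendritic cell markers were higher, where 9.1% of all genes were. No neutrophil marker and no basophil or mast cell marker lay below the lowest array median of 4.87 in OX40L-JAG1 Teff cells. That cutoff is lenient for these arrays, whose own medians were 5.17 and 5.12. All genes of mean level 4 to 5 had a median change of 0.44 over control Teff cells. In OX40L-JAG1 Treg cells, where none of the 8 genes passed, neutrophil markers summed to 1553 to 1886, against 220 to 224 in control Treg cells. Myeloid and dendritic cell markers there summed to 1315 to 1406, against 394 to 415. Basophil and mast cell markers summed to 875 to 953, against 148 to 163, and erythroid and platelet markers to 417 to 510, against 63.2 to 73.2. No marker of these lists was called lower in OX40L-JAG1 Treg cells. The part of these cells in the falls was not tested.

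The OX40L-JAG1 response of Treg minus Teff cells was positive for 6 of the 8 genes, where 31.5% of all genes tested passed and 21.3% were positive. Among the 1346 bright genes 63.3% were positive and the median was 1.39, against 1.84 for the 8. It was 2.96 ± 0.31 (SE) for Cd4 (limma, adjusted p = 2.87e-04) and 2.40 ± 0.27 for Thy1 (limma, adjusted p = 3.27e-04), and 1.56 to 2.20 for Cd3e, Cd6, Cd5 and Cd2. After cyclic loess only Cd4 of these 6 passed, at 1.55 (limma, adjusted p = 0.00851), where 8.34% of all genes passed. Compared directly, 7 of the 8 were higher in OX40L-JAG1 Treg than in OX40L-JAG1 Teff cells, where 41.1% of all genes passed and 24.6% were higher. Of the bright genes 76.7% were higher, with a median of 1.18, against 1.58 for the 8. Cd2 had the largest of these differences, 2.08 ± 0.19 (limma, adjusted p = 6.09e-05), and was the one that also passed after cyclic loess, at 0.77 (limma, adjusted p = 0.0161), where 12.9% of all genes passed.

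The treatments were also set against each other. In anti-CD3-CD28 Treg over OX40L-JAG1 Treg cells none of the 8 passed in limma, where 5.91% of all genes tested did, and 1 had an unadjusted p under 0.05. The changes ran from -0.80 ± 0.42 (SE) for Cd3d to 0.47 ± 0.19 for Thy1. Without the OX40L-JAG1 Teff arrays Cd3d passed as lower (limma, adjusted p = 0.00277), where 13.9% of all genes passed. In anti-CD3-CD28 Teff over OX40L-JAG1 Teff cells Thy1, Cd2 and Cd3e were higher, by 1.48 ± 0.19, 1.05 ± 0.19 and 0.83 ± 0.18 (limma, adjusted p = 4.09e-04, 0.00288 and 0.00777), where 28.1% of all genes passed and 18.9% were higher. Of the bright genes 55.9% were higher, with a median of 0.84, against 0.74 for the 8. None of these 3 passed after quantile normalization, where 15.7% of all genes did, or after cyclic loess, where 12.8% did. Both scalings called Cd6 lower instead, at -0.51 and -0.62 (limma, adjusted p = 0.0426 and 0.0230), against 0.34 ± 0.21 over all 12 arrays as deposited. The difference of these treatment effects between Treg and Teff cells passed for 0 of the 8 in limma, where 0.915% of all genes passed, and 6 had an unadjusted p under 0.05.

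The other genes of the pathway were described by lists. Of 39 measured proximal TCR kinases, adaptors and phosphatases, 18 fell and none rose in anti-CD3-CD28 Teff over control Teff cells. Their median change was -0.68, against 0.07 over all genes, of which 9.75% were lower and 5.44% higher. Among the 1346 bright genes 27% were lower and 12.6% higher, with a median of -0.33. Tespa1, an adaptor of TCR calcium signalling, changed by -3.31 ± 0.33 (SE), Dgka, a diacylglycerol kinase that dampens the signal, by -1.88 ± 0.18, and Fyn, a Src family kinase related to Lck, by -1.80 ± 0.20 (limma, adjusted p = 7.78e-05, 5.75e-05 and 1.60e-04). Zap70, the kinase that docks on phosphorylated CD3 chains, changed by -0.04 ± 0.20 (limma, adjusted p = 0.926). Lat, the adaptor that it phosphorylates, fell by 0.91 ± 0.27 (limma, adjusted p = 0.0446).

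In Treg cells the same list had 9 members higher and 1 lower after anti-CD3-CD28, with a median of 0.32, against -0.05 over all genes, of which 8.08% were higher and 1.97% lower. Among the 1346 bright genes 18.8% were higher, with a median of 0.25. Sla2, an adaptor that restrains TCR signalling, rose by 1.54 ± 0.19 (SE) and Malt1, a protease of antigen receptor signalling, by 1.22 ± 0.19, while Lax1, another adaptor, fell by 1.30 ± 0.24 (limma, adjusted p = 2.76e-04, 0.00179 and 0.00448). The Treg response minus the Teff response passed for 16 of the 39, all positive, led by Dgka. Of all genes 10.1% were positive, and of the bright genes 31.3%. After quantile normalization 9 of the 39 were positive, where 2.75% of all genes were. After OX40L-JAG1, Sla2 was the 1 member that rose in Treg cells, by 1.00 ± 0.19 (limma, adjusted p = 0.0229), where 0.996% of all genes were higher. In Teff cells 34 of the 39 fell, where 26.9% of all genes and 71.8% of the bright genes were lower. After quantile normalization 19 were lower and 2 higher, where 12.6% of all genes were lower and 9.1% higher.

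Of 24 other T cell surface glycoproteins, 10 fell and 3 rose in anti-CD3-CD28 Teff over control Teff cells. Of all genes 9.75% were lower and 5.44% higher, and of the bright genes 27% and 12.6%. Cd27, a costimulatory receptor of the TNF receptor family, changed by -2.76 ± 0.29 (SE), Cd7 by -2.55 ± 0.28 and Cd226, an adhesion and costimulatory receptor, by -2.14 ± 0.30 (limma, adjusted p = 1.31e-04, 1.74e-04 and 7.91e-04). Ctla4, the inhibitory receptor for CD80 and CD86, rose by 3.73 ± 0.23 and Icos, an inducible relative of CD28, by 1.93 ± 0.23 (limma, adjusted p = 4.03e-06 and 2.59e-04). Among 24 in anti-CD3-CD28 Treg cells 6 rose and 1, Cd226, fell, where 8.08% of all genes were higher and 1.97% lower. Of the bright genes 18.8% were higher and 9.44% lower. Icos rose by 1.93 ± 0.23 (limma, adjusted p = 2.47e-04). After quantile normalization 5 were higher and 6 lower, where 4.53% of all genes were higher and 2.35% lower. Without the OX40L-JAG1 Teff arrays 9 were higher and 6 lower, where 14.8% of all genes were higher and 6.75% lower. The fall of the 4 genes in Teff cells thus stood beside 10 falls and 3 rises among these 24 on the same arrays. The median change of the 24 was -0.51, and their share of rises was near that of the bright genes.

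T lineage transcription factors fell in 8 of 13 cases and rose in 1 in anti-CD3-CD28 Teff over control Teff cells, with a median of -1.33, where 9.75% of all genes and 27% of the bright genes were lower. Tox changed by -2.79 ± 0.18 (SE), Lef1, a partner of TCF-1, by -2.02 ± 0.19, and Bcl11b, which keeps T cell identity, by -1.65 ± 0.21 (limma, adjusted p = 6.23e-06, 5.66e-05 and 4.45e-04). Their Treg response minus Teff response passed for 12 of the 13, all positive, where 10.1% of all genes and 31.3% of the bright genes were. After quantile normalization 7 of the 13 passed, all positive, where 2.75% of all genes were positive. In anti-CD3-CD28 Treg cells 4 of the 13 rose, among them Runx3 by 2.18 ± 0.25, and 1 fell (Tox). Of all genes 8.08% were higher and 1.97% lower there, and of the bright genes 18.8% and 9.44%.

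Of the 4 measured TCR constant and accessory chains, Trat1, which encodes a protein that associates with the CD3 zeta chain, rose by 2.04 ± 0.26 (SE) in anti-CD3-CD28 Treg over control Treg cells (limma, adjusted p = 3.95e-04), against a change of -0.09 ± 0.26 in Teff cells (limma, adjusted p = 0.869). Cd8a, a chain of the other coreceptor, rose by 1.13 ± 0.26 in anti-CD3-CD28 Teff cells (limma, adjusted p = 0.0140). Cd8b1, for the other chain of CD8, was not called, and the median change of these 2 genes was 0.19. With the OX40L-JAG1 Teff arrays left out Cd8a passed as higher and Cd8b1 as lower. Among 5 measured ligands, Alcam, the ligand of CD6, rose by 0.95 ± 0.20 in anti-CD3-CD28 Teff cells (limma, adjusted p = 0.00777). H2-Ab1, the beta chain of the MHC class II molecule that CD4 binds, rose by 4.24 ± 0.33 in anti-CD3-CD28 Treg cells, while H2-Aa, its alpha chain, changed by -0.11 ± 0.33 (limma, adjusted p = 1.42e-05 and 0.896). In OX40L-JAG1 Treg cells both rose, H2-Ab1 by 3.72 ± 0.33 and H2-Aa by 2.86 ± 0.33 (limma, adjusted p = 3.48e-04 and 0.00131). In control cells both were called lower in Treg than in Teff. On the OX40L-JAG1 Treg arrays 6 of 14 myeloid and dendritic cell markers were called higher and 0 lower, where 0.996% of all genes were higher. The part of such cells in these rises was not tested.

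Across the 12 arrays the members paired unevenly, which is a description over arrays that share 6 groups. Pearson's r was 0.968 for Cd5 and Cd6, 0.958 for Cd3e and Cd6, 0.948 for Cd3e and Cd5 and 0.813 for Cd3e and Cd3g. Cd3d had 0.686 with Cd3g, 0.223 with Cd3e and 0.126 with Cd4, the lowest value of any pair. By the same measure over 11649 genes, those most like the mean of Cd3d, Cd3e and Cd3g were Sec22a (0.987), Mrpl24 (0.980), St7l (0.974), Gm6238 (0.971) and Trim12a (0.970).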

How the data were processed

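Total RNA of 12 sorted cell samples was measured on 1 array each. The deposited values are log2 intensities that the authors made with RMA, per the submitters' processing notes, with no version given and were not changed before the test. Of 41345 rows, 23521 had exactly 1 gene symbol in the probe annotation, which can be old. Rows were named through Entrez IDs in a RefSeq gene table where these matched (23328 rows). Rows with several symbols (1814) or none (16010) were left out, and each of the 1082 genes on more than 1 row was taken from its brightest row by mean, leaving 22180 genes.

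The 6 group means were fitted jointly to the 12 arrays with limma 3.58.1 in R 4.3.3 (lmFit and eBayes, 6 residual degrees of freedom). It gave the comparisons of groups and 3 interactions, with two-sided Benjamini-Hochberg adjusted p-values over all genes of a comparison and a threshold of 0.05. Each gene has 1 spread, shared by all groups. Where the OX40L-JAG1 Teff replicates lie furthest apart, as for Cd3d, it understates the error of those cells and overstates that of the others. This does not hold for every gene: the SD of Cd3e was 0.03 in OX40L-JAG1 Teff, against 0.25 in control Treg cells. Precision is limited by having 2 arrays a group.

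The members and gene lists were chosen with earlier results of these data known. The text names all members, up to 4 members of each list per comparison by size of change among those called, and the 5 genes most like the mean of the CD3 genes. Icos, Zap70, Lat and H2-Aa, among others beyond that rule, were named after their values were seen. Alternatives were quantile normalization, a common median, dim genes left out, array weights, the replicate block, a mean over the rows of each gene, each array left out, the OX40L-JAG1 Teff arrays left out and, added after the data were seen, cyclic loess with and without those arrays. Replicates of different groups that share a number had deviations that correlated at -0.0693 to 0.182 over 15 pairs of groups, so the samples were not treated as paired. The test was checked on simulated data.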

Additional observations from a re-analysis of the deposited data

Results flagged for a closer look

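In 11 cases the response of Treg cells differed from that of Teff cells by the interaction test (limma, adjusted p under 0.05), given as Treg minus Teff on the log2 scale. For OX40L-JAG1 over control the differences were 2.20 for Cd3e, 2.96 for Cd4, 1.63 for Cd5, 2.05 for Cd6, 1.56 for Cd2 and 2.40 for Thy1. These rest on the OX40L-JAG1 Teff arrays, and cyclic loess kept the call of Cd4 alone. For anti-CD3-CD28 over control they were 1.30 for Cd3e, 2.17 for Cd4, 1.53 for Cd5, 1.57 for Cd6 and 1.39 for Thy1. The anti-CD3-CD28 differences used none of those arrays except through the shared spread, and without them all 5 passed. Cyclic loess kept the calls of Cd4 and Cd6 and ended those of Cd3e, Cd5 and Thy1. Both sets share the control arrays and so are not independent of each other. No group had enough arrays for a check of single outlying arrays.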

How the results depend on the processing

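Over all 12 arrays 39 changes of members passed. All 39 kept direction and call with a common median, dim genes left out, the mean of all rows and the replicate block, 36 did with array weights, 31 with quantile normalization and 16 with cyclic loess, where 19 lost the call and 4 reversed. The reversed values were 0.0333 for Cd3g and 0.0601 for Cd2 in OX40L-JAG1 Teff minus control Teff, -0.16 for Cd3e in anti-CD3-CD28 Teff minus OX40L-JAG1 Teff, and -0.22 for Cd3g in OX40L-JAG1 Treg minus OX40L-JAG1 Teff. Of the 16 called without using OX40L-JAG1 Teff cells, all 16 held without their arrays. With cyclic loess and without those arrays, 15 of the 16 held, 1 lost the call and 0 reversed. The cause of these moves was not tested.

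The count of members that passed moved as follows. In anti-CD3-CD28 Treg minus control Treg it was 1, against 2 with quantile normalization, 3 with cyclic loess, 4 with array weights, 4 without the OX40L-JAG1 Teff arrays, 4 with cyclic loess and without them, and 0 to 4 with 1 array left out. In anti-CD3-CD28 Treg minus OX40L-JAG1 Treg it was 0, against 2 with array weights, 1 without those arrays, 2 with cyclic loess and without them, and 0 to 1 with 1 array left out. In anti-CD3-CD28 Teff minus control Teff it was 4, against 7 with array weights, 7 without those arrays and 4 to 7 with 1 array left out. In anti-CD3-CD28 Teff minus OX40L-JAG1 Teff it was 3, against 1 with quantile normalization, array weights or cyclic loess, 6 with a common median, 5 with dim genes left out, and 3 to 8 with 1 array left out, the 8 without OX40L-JAG1 Teff replicate 1. In control Treg minus control Teff it was 2, against 5 with array weights, 4 without those arrays, 1 with cyclic loess, 4 with cyclic loess and without them, and 0 to 4 with 1 array left out. It was 0 there without control Teff replicate B or control Treg replicate B. In OX40L-JAG1 Treg minus OX40L-JAG1 Teff it was 7, against 1 with cyclic loess. In anti-CD3-CD28 Treg minus anti-CD3-CD28 Teff it was 4, against 7 with array weights, 7 without those arrays and 2 to 7 with 1 array left out, the 2 without anti-CD3-CD28 Treg replicate 1. For the interactions it was 6 for OX40L-JAG1, against 1 with cyclic loess, and 5 for anti-CD3-CD28, against 3 with cyclic loess and 3 to 7 with 1 array left out, the 3 without control Teff replicate B. For the difference between treatments it was 0, against 0 to 7 with 1 array left out, the 7 without OX40L-JAG1 Teff replicate 1 and 1 without replicate B. The lone array of a group is then assumed to vary like the other groups. With the replicate block the counts were 7 in OX40L-JAG1 Teff minus control Teff and 4 in anti-CD3-CD28 Teff minus control Teff, as without it, and 4, against 3, in anti-CD3-CD28 Teff minus OX40L-JAG1 Teff.

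Counts over all genes moved too. Without the OX40L-JAG1 Teff arrays they were 1200, against 345 in OX40L-JAG1 Treg minus control Treg, 4770, against 2230 in anti-CD3-CD28 Treg minus control Treg, 6421, against 3369 in anti-CD3-CD28 Teff minus control Teff, and 3220, against 853 in control Treg minus control Teff. With cyclic loess the OX40L-JAG1 Teff minus control Teff count was 4043, against 10405.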

Other observations

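Taken alone, Cd3d had other close matches across the 12 arrays than the mean of the CD3 genes, in a search added after its values were seen. Over 11649 genes the highest Pearson's r with Cd3d were 0.979 for Rpl38 and 0.973 for Rpl35, which encode proteins of the large ribosomal subunit, 0.977 for Dcaf13, 0.971 for Brk1 and 0.965 for Pigbos1. With Cd3e the highest value was 0.986 for Dyrk1a. The arrays share 6 groups, and the OX40L-JAG1 Teff arrays lie far from the rest, so these are descriptions with no test.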
